A study of Mus musculus with 12 samples.

Results

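The genes described here are 8 genes known from the differentiation of spermatogonia: Kit, Stra8, Sohlh1, Sohlh2, Dmrt1, Dmrtb1, Rhox13 and Upp1. Their rows were found by symbol, through the Ensembl identifiers of the table, and no measured value entered that rule. They make up 8 of the 55487 genes in the deposited table. All 8 passed the filter on low values, which asked for 10 or more normalized counts in 3 or more libraries. The sequenced RNA came from testicular germ cells of male Mvh-Venus transgenic mice, in which a fluorescent protein marks cells that express the germ line gene Mvh (also called Ddx4). The 12 libraries form 4 stages of 3 libraries: E13.5 and E16.5 (embryonic days), P0 (birth) and P3 (postnatal day 3). The labels call the cells gonocytes, the testicular germ cells present before spermatogonia appear, and the series concerns the loss of Morc1, a germ cell gene. Titles and sources describe every sample as wild type, whereas the genotype tag reads Morc1 (+/-) at E13.5 and P0 and Morc1 (-/-) at E16.5 and P3. Stage and tagged genotype therefore cannot be told apart in a comparison of consecutive stages or of E13.5 with P3. Nothing says whether the 3 libraries of a stage came from separate animals, so p-values measure the spread between these libraries, which may be technical.

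In the postnatal testis, spermatogonia either stay undifferentiated, as stem and progenitor cells, or commit to differentiation under retinoic acid. Commitment is marked by the receptor tyrosine kinase KIT, whose ligand is made by Sertoli cells, and by STRA8, a protein induced by retinoic acid that is later required for entry into meiosis. SOHLH1 and SOHLH2 are related basic helix-loop-helix (bHLH) transcription factors of germ cells that promote Kit expression. DMRT1 and DMRTB1 (also called DMRT6) are DM-domain transcription factors that act on the mitosis to meiosis decision in spermatogonia. RHOX13 is a homeobox protein of germ cells encoded on the X chromosome, and UPP1 is uridine phosphorylase, an enzyme of pyrimidine salvage.

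Values are normalized counts, that is, reads per gene divided by a size factor of the library. Reads assigned to genes numbered 40946616 to 51533747 per library. Morc1 itself had 1621 to 1830 normalized counts at E13.5, 28328 to 32916 at E16.5, 7280 to 7708 at P0 and 10584 to 11129 at P3, so the stages tagged (-/-) did not have the lower levels. The defining germ cell markers Ddx4 and Dazl were abundant at every stage, from 22151 for Ddx4 at P0 to 142605 for Dazl at E13.5. The median log2 fold change over all 22384 genes tested was 0.31 for E16.5 against E13.5, -0.01 for P0 against E16.5 and 0.05 for P3 against P0. Scaling to equal library totals shifted these medians by 0.46, 0.65 and -0.82. Small changes therefore depend on the scaling, most of all those that involve P0. In bulk RNA, fewer cells of a type and less RNA per cell cannot be told apart. Levels are compared between genes only as normalized counts per kb of exon. The exon length is that of all exons of a gene in the GENCODE annotation, merged.

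The 8 genes did not move together. The highest stage mean was at E13.5 for Kit and Sohlh2, at E16.5 for Sohlh1, at P0 for Dmrtb1 and Upp1, and at P3 for Stra8, Dmrt1 and Rhox13. Each of the 8 varied over the 4 stages (F-test in limma, p adjusted by Benjamini-Hochberg from 3.42e-17 for Sohlh2 to 4.40e-08 for Upp1), but so did 95.2% of all genes tested. Between E13.5 and E16.5 all 8 changed, where 80.1% of all genes did: 5 were higher at E16.5 (45.5% of all genes) and 3 lower (34.6%). Between E16.5 and P0 all 8 changed, where 61.0% of all genes did, with 5 higher at P0 (27.6%) and 3 lower (33.4%). Asking also for a log2 fold change of 1 or more in size left 5 of the 8, beside 34.0% of all genes. Between P0 and P3, 5 of 8 changed, where 76.5% of all genes did, with Kit, Stra8, Sohlh2 and Dmrt1 higher at P3 (40.1%) and Upp1 lower (36.4%). Sohlh1, Dmrtb1 and Rhox13 did not pass the threshold in that comparison. Stages with the same genotype tag can also be set side by side: from E13.5 to P0 all 8 changed (86.1% of all genes), 5 of them higher (45.7%) and 3 lower (40.5%). From E16.5 to P3, 6 of 8 changed (69.5%), 5 of them higher (34.2%) and 1 lower (35.2%). E13.5 and P3 differ in genotype tag, and between them all 8 changed (70.4%), with 5 higher at P3 (39.2%) and 3 lower (31.2%). Most genes tested changed in every comparison, so the direction and size of each change are given gene by gene. Shares of all genes, here and below, were counted with the deposited size factors. None is given for equal library totals, so counts under that scaling are set beside medians only.

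**Figure D1:**
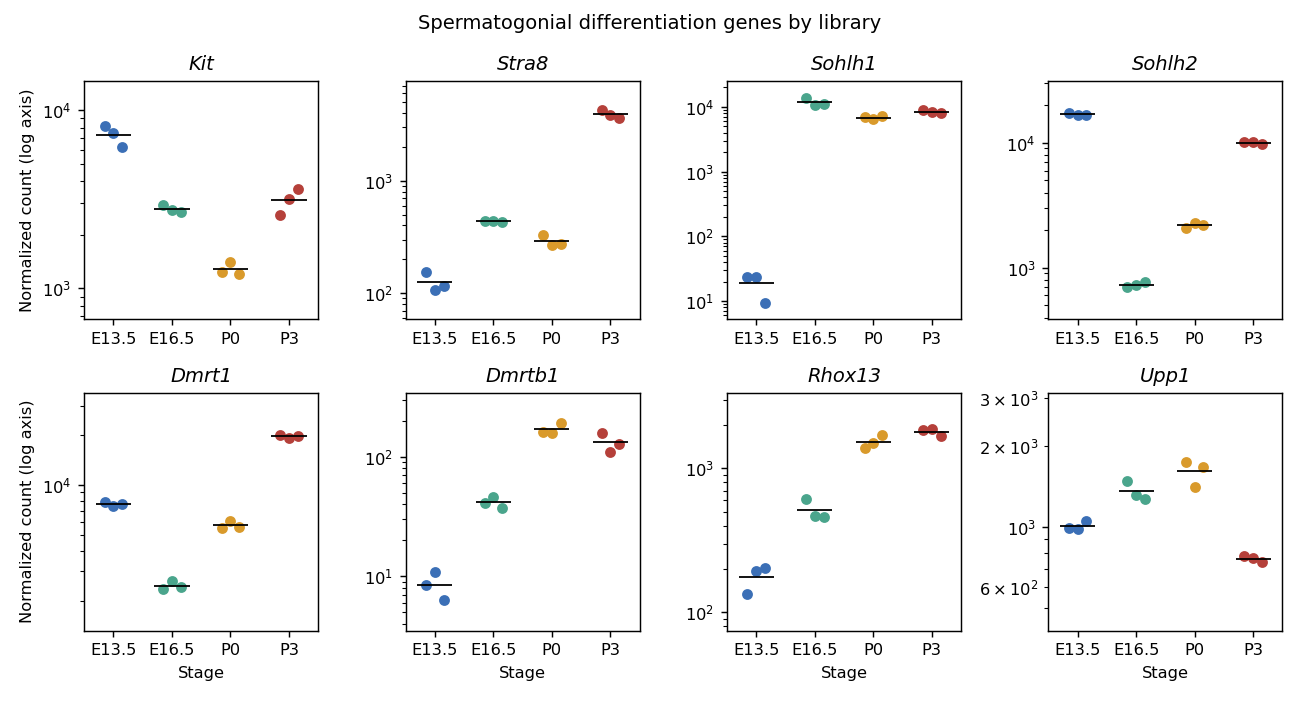
Normalized counts (log axis, own range in each panel) of the 8 genes by stage, with 1 point per library and a line at the mean of 3 libraries. Sohlh1 lies between 9.46 and 23.9 at E13.5 and at 6418 or more in every later library, whereas Sohlh2 is highest at E13.5.

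Kit encodes the receptor for stem cell factor and lies on chromosome 5 at 75574916 to 75656722 on the + strand of GRCm38 (ENSMUSG00000005672). It fell across fetal life to a minimum at P0 and was higher again at P3, without returning to the level of E13.5. E13.5 libraries 1, 3 and 4 had 8113, 7487 and 6229 normalized counts, and E16.5 libraries, in the same order, 2954, 2758 and 2699.7. P0 libraries had 1232, 1403 and 1209.5, and P3 libraries 2588, 3198 and 3632. The E13.5 libraries lay above all others, the P0 libraries below all others, and the E16.5 and P3 libraries overlapped. Kit was 2.58-fold lower at E16.5 than at E13.5 (log2 fold change -1.37, SE 0.115, limma adjusted p 1.05e-08). The next interval, to P0, brought a further 2.19-fold decrease (log2 fold change -1.13, adjusted p 2.80e-07). Kit then rose 2.43-fold by P3 (1.28, adjusted p 3.05e-08). P3 and E16.5, neighbours in the order of levels, lay 0.15 apart on the log2 scale (SE 0.115, limma adjusted p 0.257). That comparison depended on a single library: without P3 library 1 the difference was 0.28 (adjusted p 0.0347). The 3 P3 libraries had a coefficient of variation of 16.7%.

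Kit transcripts are also made by mast cells and by steroidogenic cells. The summed normalized counts of 10 mast cell markers were 344 to 391 at E13.5, 753 to 899 at E16.5, 2660 to 4547 at P0 and 973 to 1232 at P3. Outside P0 most of the sum came from Hdc and Gata2. Their means were 87.4 and 280 at E13.5, 237 and 569 at E16.5, and 519 and 448 at P3. Of the 10 mast cell markers, 8 had at most 3 reads in each E13.5 library, while 9 of 10 reached 10 normalized counts in every P0 library. The sum was highest at P0, where Kit was lowest, although Hdc had its highest mean at P3 and Fcer1a at E16.5. At P3 the mast cell proteases Cpa3 and Tpsb2 were at 0 in at least 1 library and reached 82.5 and 128.6 in another, and the part of mast cells in the Kit level was not tested at any stage. The 7 Leydig and steroidogenic markers summed to 772 to 986 at E13.5, 892 to 8343 at E16.5, 1705 to 7700 at P0 and 610.5 to 638.7 at P3. E16.5 library 4 held the 8343 and had the lowest Kit level of its stage, while P0 library 4 held the 1705 and also had the lowest Kit level of its stage. The part of steroidogenic cells in the Kit level was not tested.

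Inside a library the ratio of 2 genes does not depend on the size factor. Gfra1, a subunit of the receptor for glial cell line-derived neurotrophic factor, marks undifferentiated spermatogonia and was set beside Kit after its values were seen. Reads per kb of Kit were 151 to 236 times those of Gfra1 at E13.5, 9.25 to 10.7 times at E16.5, 1.27 to 1.44 times at P0 and 0.113 to 0.132 times at P3. The 4 stages did not overlap in this ratio, whose size at E13.5 rests on 17 to 28 reads of Gfra1. Both genes were higher at P3 than at P0, but Gfra1 went from 575 ± 51.4 to 15269 ± 1436 normalized counts (mean ± SD, n = 3), so that its reads per kb at P3 were 7.55 to 8.87 times those of Kit.

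Stra8 lies on chromosome 6 at 34920163 to 34939344 on the + strand (ENSMUSG00000029848). It stood at a low level in the fetal and newborn libraries and rose sharply at P3. Its normalized counts were 154, 106 and 115 at E13.5 (libraries 1, 3 and 4), then 435, 441 and 433 at E16.5. P0 libraries had 328, 267 and 276, and P3 libraries 4296, 3858.5 and 3656. No 2 stages overlapped, and the lowest P3 library was above every earlier one. Stra8 rose 3.52-fold between E13.5 and E16.5 (log2 fold change 1.82, limma adjusted p 2.22e-09). Its decrease from E16.5 to P0 was smaller (log2 fold change -0.59, adjusted p 0.00129), and with equal library totals this difference was 0.07 (adjusted p 0.635). From P0 to P3 it rose 13.54-fold (log2 fold change 3.76, SE 0.136, adjusted p 4.42e-13), and 6.33% of all genes tested had a larger absolute change in that comparison. From E13.5 to P3 it rose by 4.98 on the log2 scale, 31.6-fold between the stage means.

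STRA8 acts in meiotic entry with its partner MEIOSIN, whose gene is listed in the annotation as Gm4969. Gm4969 had 123 ± 27.3 and 230 ± 58.8 normalized counts in the fetal stages, 302 ± 15.8 at birth (P0) and 350 ± 34.0 in P3 libraries (SD, n = 3). Between P0 and P3 its log2 fold change was 0.21 (limma adjusted p 0.339), and it was below 0 with equal library totals. Reads per kb of Stra8 were 1.94 to 3.52 times those of Gm4969 at E13.5, 4.23 to 6.95 times at E16.5, 2.27 to 2.995 times at P0 and 27.95 to 30.4 times at P3. The P3 libraries therefore stood apart in the balance of the pair, and the E13.5 and P0 libraries overlapped. This pair was also chosen after its values were seen.

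The list of 13 meiotic genes that includes Gm4969 had 8 genes higher and 3 lower at P3 than at P0, where 40.1% and 36.4% of all genes were. With equal library totals the same list had 5 higher and 6 lower, so these counts depended on the scaling. Its median was then a log2 fold change of -0.17, beside -0.77 over all genes tested. Smc1b, a meiotic cohesin subunit, rose by 2.21 on the log2 scale from P0 to P3, to 12121 ± 680 normalized counts. Stag3, another meiotic cohesin subunit, had the highest mean of the list and changed by -0.24 in the same comparison (adjusted p 0.0209), to 8954 ± 777. Spo11, which makes the DNA breaks of meiotic recombination, fell by 2.40 to 227 ± 53.2. Mei1 rose from 3.86 ± 3.69 at E13.5 to 383 ± 89.4 at E16.5 (log2 fold change 6.74, limma adjusted p 1.60e-09). The list median was a log2 fold change of 0.67 at P3 against P0, beside 0.05 over all genes tested.

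Sohlh1 and Sohlh2 showed opposite levels in fetal cells. Sohlh1 (ENSMUSG00000059625) lies on chromosome 2 at 25842995 to 25847248 on the - strand, and Sohlh2 (ENSMUSG00000027794) on chromosome 3 at 55182028 to 55209957 on the + strand. Sohlh1 had 23.2, 23.9 and 9.46 normalized counts at E13.5 (libraries 1, 3 and 4), from 22, 22 and 9 reads. It had 13937, 10549 and 10903 at E16.5. P0 libraries had 6897, 6418 and 7126, and P3 libraries 8868, 8284 and 7906. The E13.5 libraries were far below all others, and the 3 later stages did not overlap.

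Sohlh1 rose by 9.31 on the log2 scale between E13.5 and E16.5 (SE 0.227, limma adjusted p 2.87e-15), and only 10 of the 22384 genes tested had a larger absolute change there. It then fell from E16.5 to P0 (log2 fold change -0.78, adjusted p 0.00686). That call was lost with median-of-ratios factors (-0.52, adjusted p 0.0505) and with equal library totals (-0.12, adjusted p 0.649). Between P0 and P3 its log2 fold change was 0.29 (adjusted p 0.248), which turned to -0.15 and -0.55 under the same 2 scalings. Between E16.5 and P3 it was -0.49 (adjusted p 0.0656), which passed the threshold in 11 of the alternatives. The later stages are ordered E16.5, P3, P0 by their means, and neighbours in that order did not pass the threshold in limma. The E13.5 libraries enter the shared spread of this gene: without E13.5 library 4 the difference of P3 from E16.5 had an adjusted p of 0.000324 and that of P3 from P0 an adjusted p of 0.0122.

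For Sohlh2, E13.5 libraries 1, 3 and 4 had 17326, 16719.6 and 16834 normalized counts, and E16.5 libraries 699, 725 and 767. P0 libraries had 2069.7, 2301 and 2199.5, and P3 libraries 10124.5, 10170.1 and 9776. All 4 stages were separate, with the highest level at E13.5 and the lowest at E16.5. It was 23.2-fold lower at E16.5 than at E13.5 (log2 fold change -4.54, SE 0.0658, limma adjusted p 1.68e-17). It rose 2.996-fold from E16.5 to P0 (log2 fold change 1.58, adjusted p 6.59e-12) and 4.58-fold from P0 to P3 (2.19, adjusted p 7.07e-14). The P3 level was still below that of E13.5 (log2 fold change -0.76, adjusted p 2.29e-08).

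The ratio of the pair inside each library shows the exchange without any size factor. Reads per kb of Sohlh1 were 0.00246, 0.00263 and 0.00103 times those of Sohlh2 in the E13.5 libraries. They were 36.6, 26.7 and 26.1 times at E16.5, 6.11, 5.11 and 5.94 times at P0, and 1.61, 1.49 and 1.48 times at P3. The stages did not overlap. Of the summed reads per kb of both genes, Sohlh1 made up at most 0.262% at E13.5, at least 96.3% at E16.5, 83.6% to 85.9% at P0 and 59.7% to 61.6% at P3. P3 was the stage at which both genes were abundant and closest to each other.

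**Figure D2:**
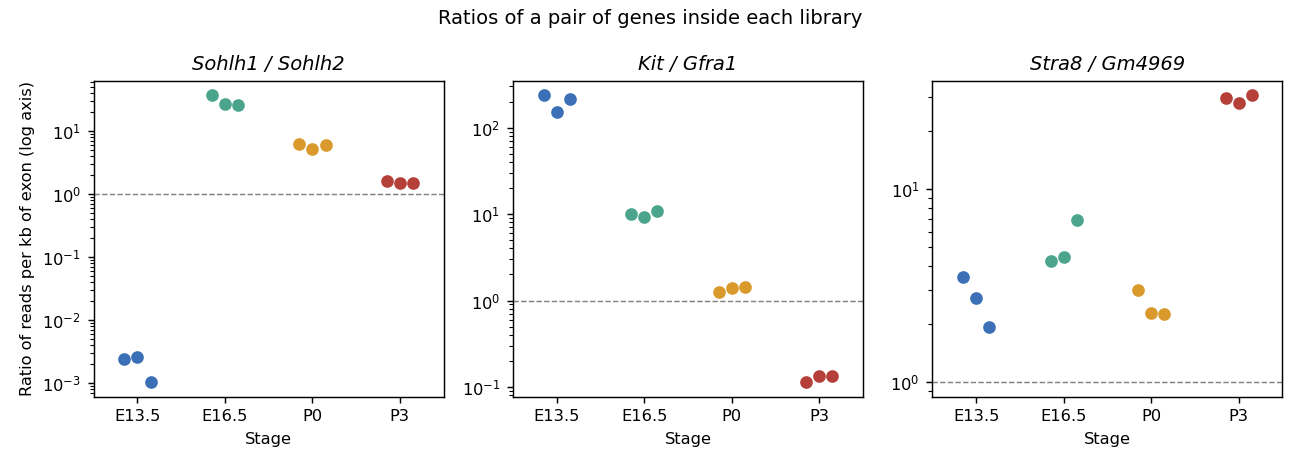
Ratio of reads per kb of exon for 3 pairs of genes inside each library (log axis, 1 point per library, dashed line at equal levels), by stage. Sohlh1 over Sohlh2 goes from at most 0.00263 at E13.5 to at least 26.1 at E16.5, Kit over Gfra1 falls below 1 at P3, and Stra8 over Gm4969 is between 27.95 and 30.4 at P3.

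The bases upstream of Sohlh1 and Sohlh2 are shown because the 2 genes moved in opposite directions. Both sequences come from RefSeq on GRCm38.p6 and run 5′ to 3′ on the strand of the gene, ending just before its most upstream annotated start. Capitals mark each match to CANNTG, the E-box that bHLH proteins bind.
Sohlh1 (chr2:25847249-25847498, - strand): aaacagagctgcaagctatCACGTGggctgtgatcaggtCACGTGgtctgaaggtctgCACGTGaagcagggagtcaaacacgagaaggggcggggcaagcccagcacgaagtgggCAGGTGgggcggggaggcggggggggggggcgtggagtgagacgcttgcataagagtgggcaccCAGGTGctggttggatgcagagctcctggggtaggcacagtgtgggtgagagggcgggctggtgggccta
Sohlh2 (chr3:55181794-55182027, + strand): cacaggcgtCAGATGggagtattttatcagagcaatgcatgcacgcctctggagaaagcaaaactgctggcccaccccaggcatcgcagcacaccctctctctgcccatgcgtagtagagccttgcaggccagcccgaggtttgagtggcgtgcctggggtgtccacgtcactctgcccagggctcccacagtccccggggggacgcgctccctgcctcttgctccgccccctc

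The Sohlh1 window of 250 bases holds 5 E-boxes, of which 3 are the palindrome CACGTG, while the Sohlh2 window of 234 bases holds 1 E-box and no CACGTG. Among 32851 RefSeq windows of 250 bases before a gene start, 66.2% hold at least 1 CANNTG on either strand, 1.15% hold at least 5, and 0.0609% hold at least 3 CACGTG. Every CACGTG is also a CANNTG. A window was found for 7 of the 8 genes, and Dmrt1 had none in the table. No window of the other 5 genes with a sequence holds CACGTG. The Stra8 window holds 2 copies of AGGTCA, the half-site bound by retinoic acid receptors, and 1.36% of all windows hold at least 2 and 14.02% at least 1, while the Sohlh1 window holds 1 copy that overlaps a CACGTG. The motif CNCCTCAG, described for STRA8, occurs in the full window of Sohlh2, outside the bases printed here, and in 1 of 3 windows of Upp1, and in 6.42% of all windows. The sequence TACANTGT, the core of the DMRT1 motif, occurs upstream of Stra8 and in 2.35% of all windows. These matches describe the letters in each window and say nothing of binding.

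Of the 9 bHLH partners and inhibitors on the list, 8 were lower at E16.5 than at E13.5 (34.6% of all genes) and 1, Figla, was higher (log2 fold change 2.27, limma adjusted p 1.08e-07), with a median log2 fold change of -2.03 beside 0.31 over all genes. Tcf3, which encodes the E proteins E12 and E47, went from 19520 ± 661 normalized counts at E13.5 to 13060 ± 1691 at E16.5 and 2920 ± 284 at P0, and stood at 11195 ± 1023 at P3. Its change from E16.5 to P0 was -2.16 on the log2 scale and that from P0 to P3 was 1.94. Id3, an inhibitor of bHLH dimers, fell from 7740 ± 512 to 201 ± 79.4 between E13.5 and E16.5 (log2 fold change -5.33, limma adjusted p 6.12e-13). Id4, a related inhibitor that marks spermatogonial stem cells, rose by 3.65 from P0 to P3, to 8861 ± 373. Tcf12 rose by 0.62 from P0 to P3, which was -0.22 with equal library totals.

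Dmrt1 (ENSMUSG00000024837) lies on chromosome 19 at 25505618 to 25604329 on the + strand. It dipped at E16.5 and was highest at P3. Its normalized counts were 7841, 7506 and 7675 at E13.5 (libraries 1, 3 and 4), then 2365, 2609 and 2419 at E16.5. P0 libraries had 5482, 6051 and 5562, and P3 libraries 20041, 19165 and 19708. No 2 stages overlapped. Dmrt1 was 3.12-fold lower at E16.5 than at E13.5 (log2 fold change -1.64, SE 0.0646, limma adjusted p 6.02e-13). It rose 2.31-fold from E16.5 to P0 (log2 fold change 1.21) and 3.45-fold from P0 to P3 (1.79, adjusted p 4.36e-13). The P0 level was below that of E13.5 (log2 fold change -0.43, limma adjusted p 9.32e-06), which depended on the scaling, at 0.05 with median-of-ratios factors and 0.74 with equal library totals. The order of P3, E13.5 and E16.5 held under each scaling tried.

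DMRT1 is made by Sertoli cells as well as by germ cells. The 11 Sertoli markers summed to 2808 to 4113 normalized counts at E13.5, 4609 to 8788 at E16.5, 14548 to 27920 at P0 and 6911 to 9174 at P3. Sox9, a defining Sertoli gene, had 446, 804, 1751 and 512 normalized counts on average at the 4 stages, so Sertoli markers peaked at P0 and Dmrt1 at P3. The P0 libraries with the highest and lowest Sertoli sums, 1 and 4, had 5482 and 5562 normalized counts of Dmrt1. The part of Sertoli RNA in the rise from E16.5 to P0 was not tested.

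Dmrtb1 (ENSMUSG00000028610) lies on chromosome 4 at 107676290 to 107684230 on the - strand and was the least abundant of the 8 genes per kb. Its normalized counts were 8.44, 10.9 and 6.31 at E13.5 (from 6 to 10 reads), then 41.0, 46.5 and 37.2 at E16.5. P0 libraries had 159.8, 159 and 191, and P3 libraries 157, 109 and 128.5. The P3 libraries lay just below the P0 libraries without overlap. It rose by 2.18 on the log2 scale between E13.5 and E16.5 (SE 0.270, limma adjusted p 1.28e-06) and by 2.00 between E16.5 and P0 (adjusted p 7.25e-06). Between P0 and P3 its log2 fold change was -0.38 (adjusted p 0.216), and it passed the threshold as a decrease with median-of-ratios factors (-0.81, adjusted p 0.0119) and equal library totals (-1.21, adjusted p 0.000565). Per kb of exon, Dmrt1 exceeded it at every stage, with 7570 ± 170 against 63.1 ± 11.6 at P3 (SD, n = 3).

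Of the other 8 DMRT family genes, 7 passed the filter. Dmrt3, a neighbour of Dmrt1 in the same gene cluster, had 1188 ± 58.1, 363 ± 76.4, 673 ± 9.38 and 3144 ± 177 normalized counts at E13.5, E16.5, P0 and P3. Its log2 fold changes between consecutive stages were -1.73, 0.91 and 2.22, beside -1.64, 1.21 and 1.79 for Dmrt1. Reads per kb of Dmrt1 were 5.79 to 6.26 times those of Dmrt3 at E13.5, 5.39 to 8.28 times at E16.5, 7.56 to 8.57 times at P0 and 5.55 to 6.23 times at P3. The P0 ratios thus lay above those of E13.5 and P3, and those of E16.5 overlapped the other stages. Dmrtc2 rose from 70.5 ± 13.7 to 1750 ± 120 at E16.5 (log2 fold change 4.63, limma adjusted p 8.10e-15) and stood at 1889 ± 173 at P3. Dmrta1 rose from 8.52 ± 4.41 at E16.5 to 76.2 ± 16.3 at P0. Dmrtc1c1 varied widely at P3, from 19.4 to 428 normalized counts, and belongs to a set of near-identical copies, so its level is uncertain.

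Rhox13 (ENSMUSG00000050197) lies on the X chromosome at 38121219 to 38129967 on the + strand. It rose at each interval up to birth. Its normalized counts were 134, 194 and 204 at E13.5 (libraries 1, 3 and 4), then 609.8, 469.6 and 457 at E16.5. P0 libraries had 1378, 1498 and 1696, and P3 libraries 1839, 1860 and 1664. The P0 and P3 libraries overlapped, and the other stages were separate. Rhox13 rose 2.90-fold from E13.5 to E16.5 (log2 fold change 1.54, SE 0.1504, limma adjusted p 6.87e-08) and 2.99-fold from E16.5 to P0 (1.58, adjusted p 1.21e-07). Between P0 and P3 its log2 fold change was 0.23 (adjusted p 0.168), and its call depended on the processing. It was -0.21 with median-of-ratios factors (adjusted p 0.237), a called decrease of -0.61 with equal library totals (adjusted p 0.00198), and a called increase of 0.23 when only these 2 stages were fitted (adjusted p 0.0369).

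The other genes of the RHOX cluster on the list numbered 31, of which 25 passed the filter. Between E16.5 and P0, 19 of the 25 were higher at P0 and 5 lower, with a median log2 fold change of 2.02 beside -0.01 over all genes, of which 27.6% were higher and 33.4% lower. Sertoli markers were also higher at P0, with sums of 14548 to 27920 against 4609 to 8788 at E16.5. Rhox8, one of the 25 (log2 fold change 3.33), is itself a Sertoli marker, and the part of Sertoli cells in the counts of this list was not tested. Between P0 and P3, 2 were higher (40.1% of all genes) and 11 lower (36.4%), with a median log2 fold change of -0.70 beside 0.05. With equal library totals 0 were higher and 20 lower, with a median of -1.53 beside -0.77 over all genes. The share of all genes called lower under that scaling is not given. Many are near-identical copies, and how reads matching several genes were counted is not given in the sources used here, so single copies are uncertain, as for Rhox4a, which had 168 ± 36.9 normalized counts at P0. Rhox5, a single-copy member, fell from 15129 ± 294 at E13.5 to 3929 ± 234 at E16.5 and 780 ± 103 at P0. Rhox10, a germ cell member, rose from 155 ± 36.9 to 3159 ± 430 at E16.5 (log2 fold change 4.36, limma adjusted p 2.22e-13) and fell by 1.78 to 916 ± 71.0 at P0. Rhox12 had at most 3 reads per library at E13.5 and E16.5, 92.4 ± 10.5 normalized counts at P0 and 5.91 ± 1.91 at P3.

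Upp1 (ENSMUSG00000020407) lies on chromosome 11 at 9118103 to 9136170 on the + strand and varied least of the 8 genes, with a 2.11-fold range between its highest and lowest stage means. Its normalized counts were 991, 979 and 1052 at E13.5 (libraries 1, 3 and 4), then 1475, 1317 and 1273 at E16.5. P0 libraries had 1747, 1409.6 and 1669.5, and P3 libraries 781, 767 and 741. The P3 libraries were below all others, and those of E16.5 and P0 overlapped. Upp1 rose by 0.43 on the log2 scale between E13.5 and E16.5 (SE 0.0937, limma adjusted p 0.000542). Its change from E16.5 to P0 was 0.24 (adjusted p 0.0330), a call lost without E16.5 library 3 or 4 or without P0 library 1 or 4 (0.18 to 0.22, adjusted p 0.0802 to 0.146). The difference of P3 from E13.5 was -0.40 (adjusted p 0.00113), a call lost with equal library totals (-0.0717, adjusted p 0.481). Upp1 was 2.099-fold lower at P3 than at P0 (log2 fold change -1.07, adjusted p 2.13e-08).

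The 14 other genes of uridine and pyrimidine metabolism mostly moved the other way at P3. At P3 against P0, 11 were higher (40.1% of all genes) and 3 lower (36.4%), with a median log2 fold change of 1.19 beside 0.05 over all genes. With equal library totals 7 were higher and 3 lower, with a median of 0.38 beside -0.77 over all genes. Tk1, the thymidine kinase of dividing cells, rose from 433 ± 53.4 to 4828 ± 356 normalized counts (log2 fold change 3.48, limma adjusted p 5.02e-14). Umps, which makes uridine monophosphate, rose by 2.91 to 18145 ± 411. Cad, which starts pyrimidine synthesis, had a log2 fold change of 0.78, which was -0.06 with equal library totals. Dpys, an enzyme of pyrimidine breakdown, fell from 123 ± 3.97 to 9.53 ± 4.50.

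**Figure D3:**
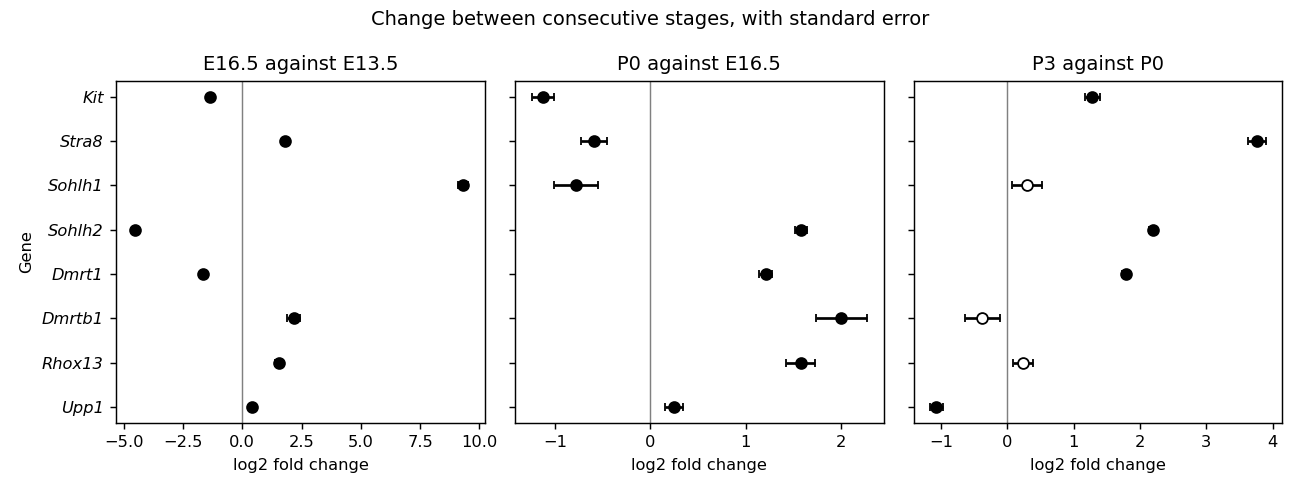
log2 fold change of each gene between consecutive stages, with its standard error from limma; filled points passed an adjusted p of 0.05 and open points did not. Sohlh1 (9.31) and Sohlh2 (-4.54) stand at opposite ends between E13.5 and E16.5, and Stra8 (3.76) has the largest of the 8 changes between P0 and P3.

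The retinoid genes upstream of Stra8 and the components of KIT signalling were described from lists of known members. Of 18 genes of retinoid synthesis, breakdown and reception, 8 were higher (40.1% of all genes) and 7 lower (36.4%) at P3 than at P0. The median log2 fold change was 0.07, beside 0.05 over all genes. With equal library totals 4 were higher and 11 lower, with a median of -0.77 beside -0.77 over all genes. Cyp26a1, a retinoic acid degrading enzyme that is itself induced by retinoic acid, had 0 reads in each E13.5 library, 40.8 ± 10.1 normalized counts at P0 and 284 to 310.3 at P3 (log2 fold change 2.85 from P0 to P3, limma adjusted p 3.81e-06). Cyp26c1 had 2 reads or fewer in each E16.5 library and 23.5 ± 0.589 normalized counts at P0. Aldh1a2, which makes retinoic acid, fell from 5908 ± 378 to 1525 ± 85.8 between P0 and P3 (log2 fold change -1.95), while Stra8 rose. Sertoli sums were 14548 to 27920 at P0 and 6911 to 9174 at P3, peritubular sums were 4839 to 5432 and 945 to 1106, and their part was not tested. Rarb, a retinoic acid receptor gene induced by retinoic acid, was highest at P0, with 227 to 281 normalized counts. Rxrb fell by 1.79 at E16.5 and by 1.34 at P0 and rose by 1.23 at P3.

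Of 23 genes of KIT signalling, 15 fell and 6 rose between E13.5 and E16.5 (median log2 fold change -0.81), beside 34.6% and 45.5% of all genes and a median of 0.31. At P3, 18 were higher and 4 lower than at P0 (median 0.77), beside 40.1% and 36.4% of all genes and a median of 0.05. With a log2 fold change of 1 or more in size also asked for, 11 and 14 of the 23 passed in these comparisons, in place of 21 and 22. The share of all genes that passed both thresholds is not given for these comparisons. Whatever their p, 50.1% of all genes had a larger absolute change than Kit (1.37) at E16.5 against E13.5. At P3 against P0, 53.7% had a larger one than Upp1 (1.07). With equal library totals 11 were lower and 7 higher at E16.5, with a median of -0.30 beside 0.77 over all genes. At P3 against P0, 9 were then higher and 9 lower, with a median of -0.07 beside -0.77. Rheb, an activator of the kinase mTOR, fell from 21173 ± 1018 to 1727 ± 94.3 normalized counts at E16.5 and rose by 1.98 on the log2 scale from P0 to P3, to 7316 ± 575. Sh2b3, an inhibitor of KIT signalling, rose from 452 ± 22.7 to 3488 ± 239 between P0 and P3 (log2 fold change 2.94, limma adjusted p 1.34e-13). Kitl, the ligand, is a Sertoli product and was highest at P0, at 455 ± 151, where the Sertoli markers were also highest; their part was not tested. Foxo1 rose by 0.63 from P0 to P3, which was -0.21 with equal library totals.

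Genes of undifferentiated spermatogonia were set beside the 8 genes as a contrast. At P3 against P0, 16 of 21 were higher (40.1% of all genes) and 2 lower (36.4%). The median log2 fold change was 2.52, whereas it was 0.79 for the 8 differentiation genes and 0.05 over all genes. With equal library totals 15 of the 21 were higher and 4 lower, with a median of 1.68 beside -0.77 over all genes. Of the 8 differentiation genes, 4 were then higher and 4 lower. Etv5 rose from 1257 ± 89.7 to 18691 ± 1583 normalized counts, Lhx1 from 115 ± 16.6 to 3168 ± 80.3 and Nanos3 from 34.0 ± 12.4 to 1045 ± 81.9. Nanos2 fell by 5.65 on the log2 scale between E16.5 and P0 and stood at 108 ± 17.9 at P3. Among 7 other genes of differentiating spermatogonia, 3 were higher (40.1% of all genes) and 2 lower (36.4%) at P3 than at P0. Ccnd2, a D-type cyclin, rose from 6401 ± 1118 to 37630 ± 1952 (log2 fold change 2.57, limma adjusted p 3.78e-11). Dnmt3a, a de novo DNA methyltransferase, fell by 0.54 in that comparison after a rise of 3.33 at E16.5, and Sox3 fell by 0.65. Neurog3, Id4, Foxo1, Rarg and Crabp1 each stand on more than 1 list.

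**Figure D4:**
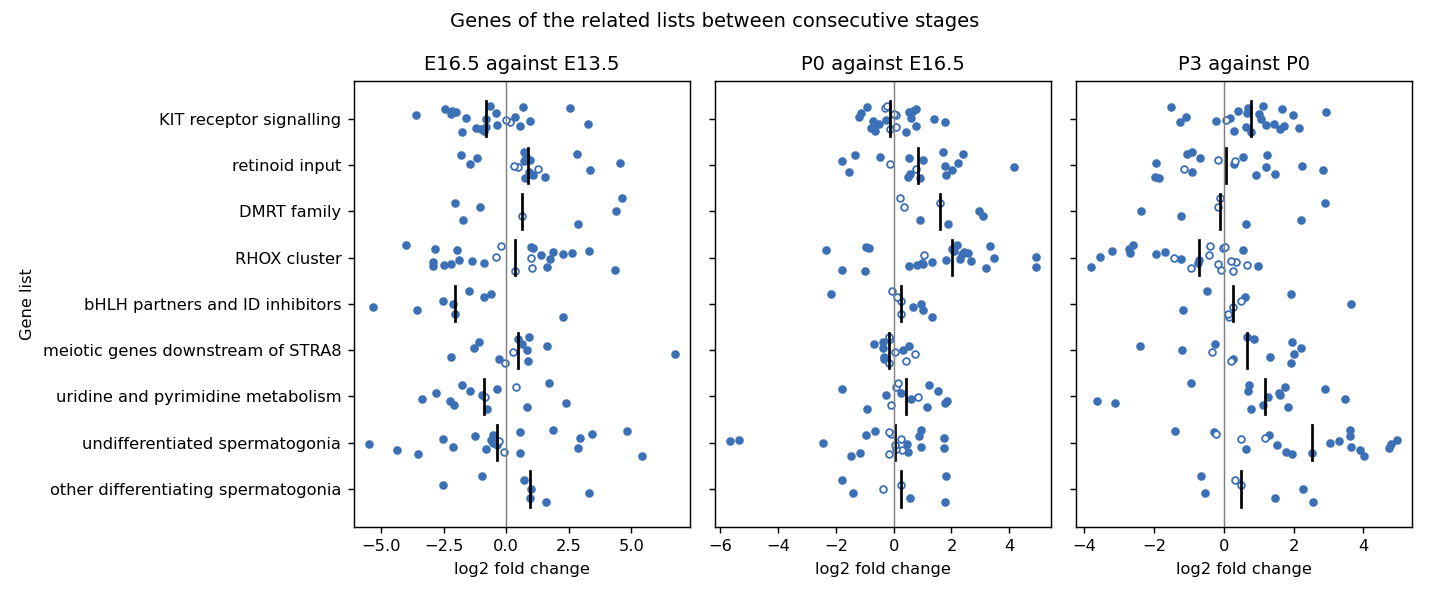
log2 fold change of each tested gene of 9 related lists between consecutive stages; filled points passed an adjusted p of 0.05 in limma, open points did not, and bars mark list medians. The list of undifferentiated spermatogonia has a median of 2.52 at P3 against P0, and the bHLH list a median of -2.03 between E13.5 and E16.5.

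Per kb of exon, Sohlh2 was the most abundant of the 8 genes at E13.5 (7174 ± 136 normalized counts per kb), Sohlh1 at E16.5 (9152 ± 1445) and P0 (5286 ± 280), and Dmrt1 at P3 (7570 ± 170, against 6480 ± 376 for Sohlh1; all SD, n = 3). Kit went from 817 ± 108 at E13.5 to 144 ± 11.9 at P0 and 352 ± 58.8 at P3, below Sohlh1, Sohlh2, Dmrt1, Stra8 and Rhox13 at P3. The P3 libraries of Kit (290 to 408 per kb) overlapped those of Upp1 (378 to 398). Stra8 went from 69.2 ± 14.3 at E13.5 to 2183 ± 181 at P3. Libraries of a stage differed by a coefficient of variation of 0.923% (Stra8 at E16.5) to 43.2% (Sohlh1 at E13.5, on 9 to 22 reads). In the order of the stages, the median over the 8 genes was 16.9%, 6.53%, 9.39% and 5.91%, beside 11.5%, 14.6%, 10.9% and 13.4% over all genes tested. Over genes with a mean of at least 100 normalized counts, which 7 of the 8 reach, it was 6.6%, 10.2%, 7.7% and 8.2%.

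For each gene, up to 2 other tested genes with the most similar pattern were named by Pearson's r over the 12 libraries, on log2(normalized count + 1), among 13464 candidates. The 12 libraries form 4 stages, so r mostly compares 4 levels, and it is given as a description. Sohlh1 was most like Unc93b1 (r 0.998) and Ptpru (0.998), which had 27.7 and 42.3 normalized counts at E13.5 and 690 and 662 at E16.5. Sohlh2 was most like Pde12 (0.998) and Amd1 (0.996), and Dmrt1 most like Coa5 (0.996) and Hlf (0.995). Stra8 was most like Pcgf5 (0.997) and Anxa7 (0.990), whose ranges were narrower, from 4714 to 18976 for Pcgf5. Kit was most like Uhrf1bp1 (0.993) and Arhgap19 (0.990), Dmrtb1 most like Tshz2 (0.994), Rhox13 most like Magea3 (0.992) and Enthd1 (0.991), and Upp1 most like Dnah7a (0.982) and Noa1 (0.979).

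**Figure D5:**
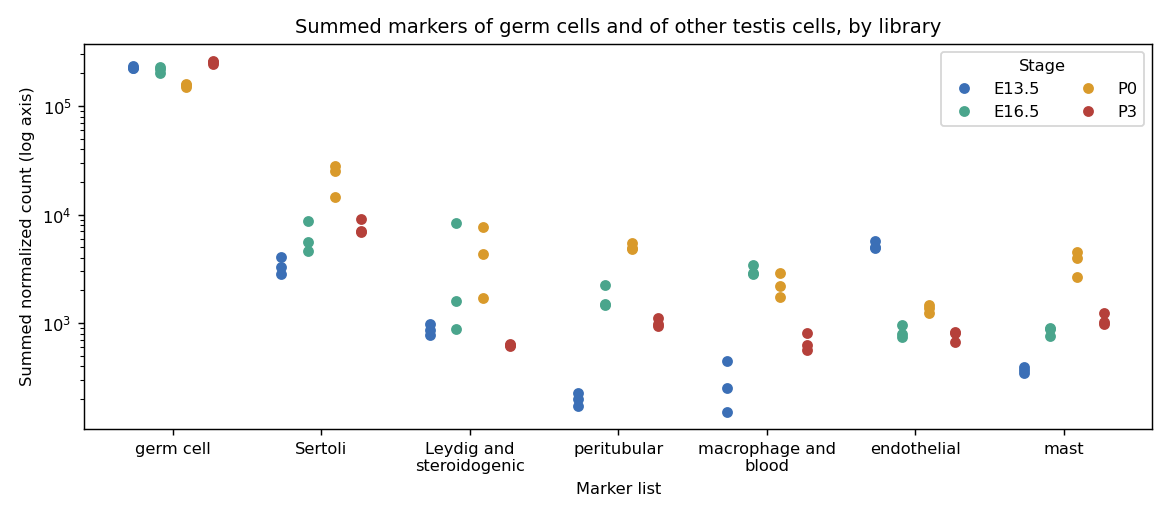
Summed normalized counts (log axis) of the germ cell markers and of markers of other testis cells, 1 point per library, coloured by stage. Sertoli sums are 14548 to 27920 and mast cell sums 2660 to 4547 at P0, above the other stages. Germ cell sums are lowest there, at 149854 to 161514, but the single markers differ. Ddx4 and Tdrd12 have their lowest mean at P0, Dazl at E16.5, and Mael, Tdrd1 and Piwil2 at E13.5.

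Markers of peritubular cells summed to 4839 to 5432 at P0 and at most 2227 at the other stages, and those of macrophages and blood to 2863 to 3455 at E16.5 and at most 2875 elsewhere. The endothelial sum was highest at E13.5, at 4969 to 5715, mainly through Pecam1, which early germ cells also express. Cldn5 also had its highest mean at E13.5, whereas Cdh5, Tek and Esam had theirs at P0 and Kdr at P3. Single markers differed widely in level: Insl3 of Leydig cells and Cldn11 of Sertoli cells had at most 22 and 20 reads in any library, whereas Cyp11a1 of Leydig cells and Inha of Sertoli cells reached 4472 and 30264. The part of these cells in the levels of Dmrtb1 and Upp1, whose highest means were at P0, was not tested.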

How the data were processed

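The submitters' processing notes name bcl2fastq 2.20, cutadapt 1.18, HISAT2 2.1.0, featureCounts 1.5.2, DESeq2 1.26.0 and the build mm10 (GRCm38); strand setting and multimapped reads are not given in the sources used here. The authors deposited 1 table whose signal is each gene's reads over the size factor of the library (RLE). Divided by what 1 read is worth in a library, 100% of values came out whole within 0.001, so reads were recovered. Column heads carry the numbers 1, 3 and 4, not the replicate numbers of the titles, so columns were assigned to stages only; pairs of libraries within a stage differed by more than sampling noise (chi-square 5.44 to 19.1 a gene). Symbols matched 55141 of 55487 identifiers. No exon of the 8 genes overlaps another gene in GENCODE M21, and none of their 50-base words (0%) occurs in transcripts of other genes.

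log2(normalized count + 1) was fitted with limma 3.58.1 in R 4.3.3 (trend) over 22384 genes and all 12 libraries, with 8 residual degrees of freedom. Calls are Benjamini-Hochberg adjusted p under 0.05 over all genes, and folds are on the log2(value + 1) scale. Genes named are the 8, Morc1, and per list the 2 highest means and the largest change of each consecutive comparison, and for each of the 8 the 2 genes with the highest Pearson's r, of which 1 is not reported here; the pairs for ratios and a few markers were chosen after their values were seen. Alternatives were other size factors, pseudocounts, filters, a minimum fold, fits of 2 stages, edgeR 4.0.16 and DESeq2 1.42.0 on recovered reads, and leaving out each library. Methods were tested on simulated data. The genes and lists were chosen with earlier results of these data known.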

Additional observations from a re-analysis of the deposited data

How the results depend on the processing

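No paired analysis was possible because libraries are numbered 1, 3 and 4 in the table but otherwise in the titles, so no replicate block was fitted. All 8 genes differed among stages in every alternative except the filter on a mean of at least 100, which left 7 of them tested, and these 7 differed. Among the counts over the 8 genes, 2 moved by over 1.5 times: 5 of 8 genes passed at P0 against E16.5 when a log2 fold change of 1 or more in size was also asked for, and all 8 changed at P3 against P0 with equal library totals (4 higher and 4 lower, in place of 4 and 1). The median over all genes at P3 against P0 was -0.77 with equal totals, and the share of all genes called there is not given. Of the counts over the related lists under all alternatives, 34 moved by over 1.5 times and 776 did not; those that moved did so mostly with the minimum fold or the filter on a mean of at least 100. Leaving out each library gave 8 to 8 changed genes in each comparison with E13.5, 7 to 8 between E16.5 and P0, 5 to 6 between P0 and P3, and 6 to 7 between E16.5 and P3. Directions turned only under scaling. With median-of-ratios factors and with equal library totals, in this order, the log2 fold change was -0.0325 and -0.0274 for Kit at P3 against E16.5, -0.15 and -0.55 for Sohlh1 at P3 against P0, 0.0492 and 0.74 for Dmrt1 at P0 against E13.5, and -0.21 and -0.61 for Rhox13 at P3 against P0. For Stra8 at P0 against E16.5 it was 0.0704 with equal totals. Sohlh1 at P3 against E16.5 passed the threshold with edgeR (-0.50, adjusted p 0.000152) and DESeq2 (adjusted p 8.38e-06), and its adjusted p at P3 against P0 was 0.0123 and 0.00898 there. Depth limits Sohlh1 and Dmrtb1 at E13.5, on 6 to 22 reads, and the ratio of Kit to Gfra1 there, on 17 to 28 reads of Gfra1. Upp1 at P3 against E13.5 was -0.0717 with equal totals (adjusted p 0.481). The causes of these differences between settings were not tested.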
